A study of Mus musculus with 6 samples.

Results

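Fat cells release hormones and growth factors, and 10 genes for such secreted factors were examined here in brown adipose tissue (BAT). They were Adipoq, Lep, Retn, Cfd, Nrg4, Fgf21, Bmp8b, Vegfa, Gdf15 and Nampt, chosen by gene symbol as known secreted products of white and brown adipocytes, by a rule that uses no measured value but was written with earlier results of these data known. All 10 were found among the 35976 genes of the count table. The expression filter left 14542 genes to be tested, and 9 of the 10 were among them. Bmp8b had too few counts.

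BAT was taken from 3 sST2-KO mice and 3 WT littermates, all male, 10 weeks old and of a C57BL/6J background. In sST2-KO mice, a piece of the Il1rl1 gene that holds the stop codon of the soluble receptor sST2 had been deleted with CRISPR/Cas9 in every cell of the body, while WT mice carried the intact gene. All 6 mice had undergone surgical denervation of BAT, had been kept at 30 °C for 7 days and were then placed at 10 °C for 8 h, so the comparison is of genotypes within denervated, cold-exposed animals. It asks how the loss of sST2 is reflected in the transcripts of BAT, and no sham-operated or warm group was analyzed here.

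Adiponectin (Adipoq), leptin (Lep), resistin (Retn) and adipsin (Cfd) are the classic hormones of white and brown adipocytes, and leptin is typically low in active brown fat. Neuregulin 4 (Nrg4), FGF21, BMP8B and VEGF-A are factors that brown adipocytes are known to release, toward liver, nerves and vessels. GDF15 is a stress-induced hormone that acts on the hindbrain, and Nampt is both the enzyme of NAD salvage and, as visfatin, an extracellular protein.

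The table holds read counts per gene, which summed to between 8159442 and 12874809 per library. Levels are given as CPM, the counts of a gene relative to the total of its library, which edgeR's TMM method had scaled. The genotypes were compared by the quasi-likelihood test of edgeR, and a gene passed where its Benjamini-Hochberg adjusted p over all 14542 genes was under 0.05. Where single values were compared by an exact permutation test, 0.1 is the smallest p that 3 mice against 3 allow. Values are listed in the order of replicates 1, 2 and 3 throughout. Il1rl1, the targeted gene, passed as higher in sST2-KO mice (log2 fold change 2.56, adjusted p = 0.0239 by edgeR's quasi-likelihood test). It had 19, 19 and 6 counts in the WT mice and 55, 69 and 142 in the sST2-KO mice. These counts add the reads of sST2 and of the membrane receptor, and so do not check the genotype. Brown adipocyte markers were present in every library. The summed level of 9 such markers was 8688 to 16636 CPM in WT mice and 356 to 1948 CPM in sST2-KO mice, and 9 of 9 passed the test as lower, 3 of them without WT replicate 2 and 1 without WT replicate 3. Some libraries held transcripts typical of other tissues, and whether such tissue was carried over was not tested. The sum of 13 liver genes was 7119 CPM in WT replicate 2 and at most 65.5 CPM in the others, and that of 10 skeletal muscle genes was 1223 CPM in WT replicate 1, 20.8 and 6.29 CPM in the other WT libraries and 3535 to 15047 CPM in sST2-KO mice. In bulk tissue, fewer cells of a type and less RNA per cell cannot be told apart.

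Within BAT, the 10 genes covered a wide span of levels. Per kilobase of the canonical transcript, Cfd was the highest, with 3633 ± 589 CPM per kb (SD, n = 3) in WT mice and 2325 ± 624 CPM per kb (SD, n = 3) in sST2-KO mice, which placed it 4th and 7th among 13275 genes with a known length. Adipoq followed with 951 ± 177 and 401 ± 124 CPM per kb and held rank 50 in WT and 109 in sST2-KO mice. Vegfa (160 ± 33.7 CPM per kb) and Nampt (116 ± 15.9 CPM per kb) came next in WT mice. The WT ranges of this pair overlapped, but Vegfa lay above Nampt within each of the 6 libraries. Retn (61.5 ± 32.9 CPM per kb) and Nrg4 (60.4 ± 7.42 CPM per kb) overlapped in WT mice, but in sST2-KO mice every Retn value (32.8 to 109 CPM per kb) lay above every Nrg4 value (14.2 to 24.8 CPM per kb). Nrg4 moved from rank 1062 to rank 3048 by this length. Per kilobase of all annotated exons, the WT means were 26.0 CPM for Retn and 8.23 CPM for Nrg4. The closeness of this pair in WT mice thus depends on the length used, and ranks by all exons were not computed. Fgf21 (4.54 ± 1.87 CPM per kb), Gdf15 (3.71 ± 4.59 CPM per kb) and Lep (1.58 ± 2.45 CPM per kb) overlapped in WT mice. In sST2-KO mice Lep (15.5 ± 19.4 CPM per kb) and Gdf15 (13.6 ± 9.21 CPM per kb) overlapped each other, and Lep's lowest value of 4.03 CPM per kb lay within the Fgf21 range of 3.50 to 4.20 CPM per kb. Bmp8b was the lowest in both groups, at 0.0840 ± 0.0232 and 0.0261 ± 0.0131 CPM per kb.

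**Figure D1:**
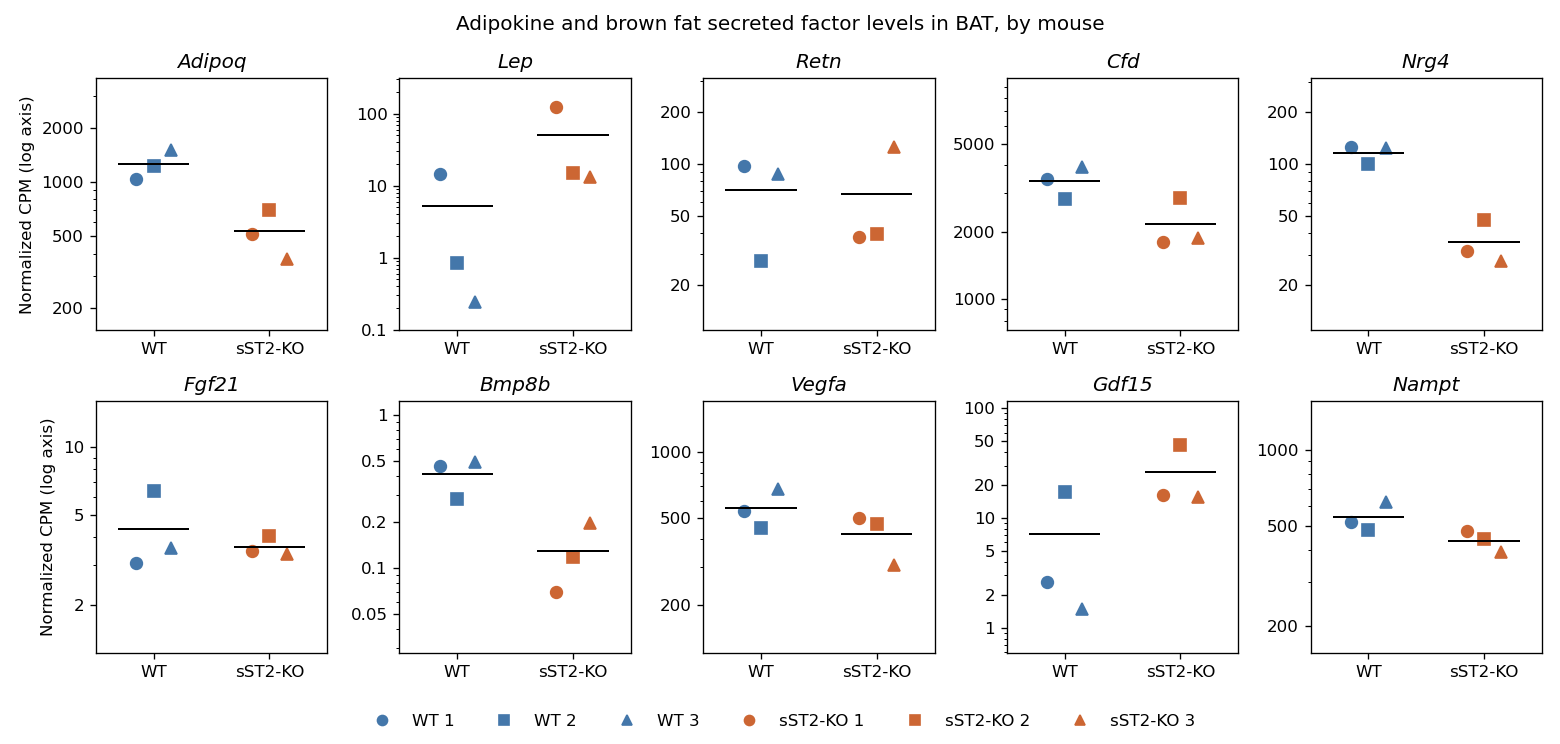
Normalized CPM of each of the 10 genes in each of the 6 libraries, on log axes that differ between genes, with a horizontal line at the group mean (n = 3). Adipoq, Nrg4, Bmp8b and Nampt show no overlap between the groups, whereas Lep and Gdf15 are spread over 58.3-fold and 11.7-fold among the WT libraries alone.

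Between the genotypes, 2 of the 9 tested genes passed the test, Adipoq and Nrg4, and both were lower in sST2-KO mice. Among all genes tested, 19.6% passed, 10.5% as higher and 9.1% as lower. Both falls were more than 2-fold, and 7.1% of all genes passed as lower with a change of that size. None of the 9 passed as higher by edgeR, where 1, Lep, was higher at an unadjusted p under 0.05. By DESeq2, which gave Lep no p, 0 passed as higher and 1, Gdf15, was higher at an unadjusted p under 0.05. The 3 sST2-KO values were under the 3 WT values in Adipoq, Nrg4 and Nampt, and in no tested gene of the group did they lie above. Over all genes, the groups did not overlap in 41.5%, with 19.7% lower and 21.8% higher in sST2-KO mice. By sign alone, 7 of the 9 fold changes were below 0, and their median log2 fold change was -0.31, beside 0.034 over all genes tested. DESeq2, under which 21.9% of the genes with an adjusted p passed, called the same pair of genes. Total counts as the scaling, which moved the median over all genes to 0.29, also left both, with 15% of all genes then passing as higher and 6.13% as lower.

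**Figure D2:**
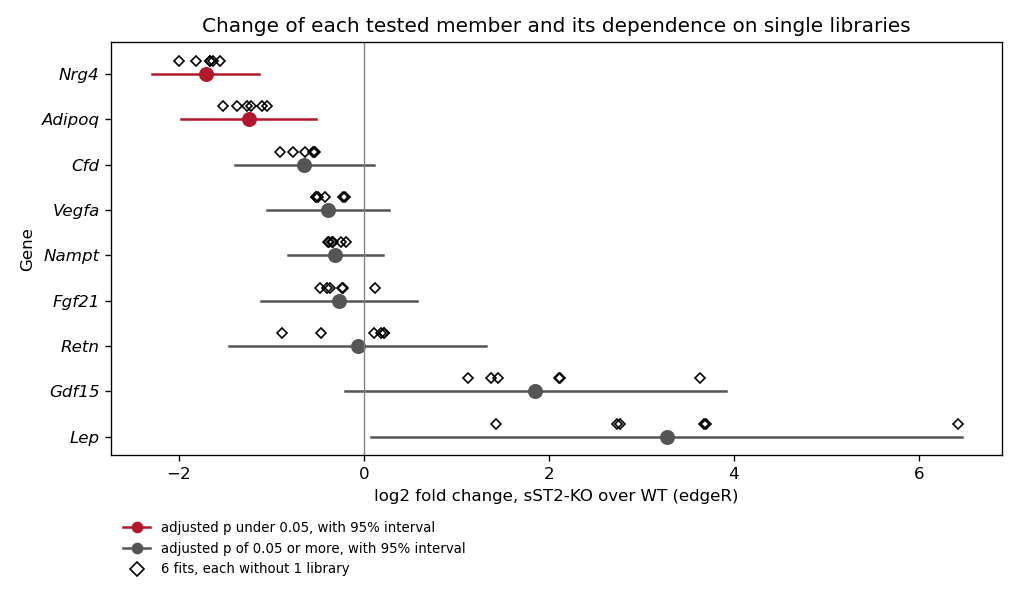
log2 fold change of sST2-KO over WT for the 9 tested genes from edgeR, with the 95% interval (line) and the 6 values obtained with each library left out (diamonds). Red marks an adjusted p under 0.05. Nrg4 stays at -1.56 or lower and Adipoq at -1.05 or lower in these 6 fits, while Lep ranges from 1.43 to 6.43 and Gdf15 from 1.12 to 3.64.

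Adipoq encodes adiponectin, the most abundant hormone of adipocytes, which promotes insulin sensitivity and fatty acid oxidation. The gene occupies chromosome 16, plus strand, 22964106 to 22976810 (GRCm39, as for all positions below). Its level was 1043, 1227 and 1509 CPM in the WT mice and 517, 703 and 375 CPM in the sST2-KO mice. The WT libraries were alike within 1.45-fold, and the highest sST2-KO library stayed below the lowest WT library. Adipoq fell 2.37-fold on the means, with a log2 fold change of -1.24 (95% interval -1.97 to -0.52, adjusted p = 0.0335 by edgeR's quasi-likelihood test). In the same libraries the mean log2 CPM of 12 mature adipocyte markers differed by -1.16 (sST2-KO minus WT). The direction of Adipoq held with each library left out, but the call held only without WT replicate 1 or without sST2-KO replicate 2. Without WT replicate 2 the adjusted p was 0.0870, without WT replicate 3 it was 0.125, without sST2-KO replicate 1 it was 0.0778 and without sST2-KO replicate 3 it was 0.0729. Leaving out a library also changed the share of all genes that passed, to 16.1%, 5.9% and 0.384% when a WT mouse was left out (replicates 1, 2 and 3) and to 17.1%, 13.3% and 9.51% when an sST2-KO mouse was.

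Nrg4 encodes neuregulin 4, a ligand of the EGF family that brown fat releases toward the liver and its own nerves. It lies on chromosome 9 from 55121336 to 55234128 on the minus strand. Its level was 125, 99.99 and 124 CPM in the WT mice and 31.6, 47.7 and 27.5 CPM in the sST2-KO mice. The groups were far apart relative to the spread within either, which was 1.25-fold among WT and 1.74-fold among sST2-KO libraries. Nrg4 fell 3.27-fold on the means, with a log2 fold change of -1.71 (95% interval -2.29 to -1.13, adjusted p = 0.0135 by edgeR's quasi-likelihood test). It was the largest fall among the 9 tested genes. The call was lost in 1 of the 6 fits with a library left out, without WT replicate 3, where the adjusted p was 0.0610 and the log2 fold change -1.67. The spans of 4 genes on the opposite strand, among them Fbxo22, overlap Nrg4, and their exons together share 1842 of its 14147 exon bases. The exons of Adipoq, Retn, Fgf21, Vegfa and Gdf15 each overlap an opposite-strand gene over 64 to 391 bases, and those of Lep, Cfd and Nampt overlap none. Whether the counting separated strands is not given in the sources used here.

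The promoters of Adipoq and Nrg4, which fell, and of Lep, which had the largest fold change in the other direction, are shown because these genes frame the comparison. They are GRCm39 sequence upstream of the start of the canonical transcript, on the strand of the gene, at chr16:22965036-22965285 (plus strand) for Adipoq, chr9:55190973-55191159 (minus strand) for Nrg4 and chr6:29059966-29060215 (plus strand) for Lep. The windows of Adipoq and Nrg4 lie within the annotated spans of these genes. The search covered 250 bases before each start on both strands, of which the 187 outside annotated exons are printed for Nrg4. Capitals mark matches to TATAAA (the TATA box), CCAAT (the CCAAT box), TTNNGNAA (the C/EBP consensus), TGACG (the CRE core), AAGGTCA (the ERR site) or ACGTG (the HIF core).
Adipoq: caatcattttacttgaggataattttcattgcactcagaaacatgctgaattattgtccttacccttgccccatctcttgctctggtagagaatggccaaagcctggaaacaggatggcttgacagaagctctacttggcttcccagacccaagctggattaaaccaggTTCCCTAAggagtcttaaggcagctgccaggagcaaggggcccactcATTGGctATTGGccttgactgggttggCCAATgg
Nrg4: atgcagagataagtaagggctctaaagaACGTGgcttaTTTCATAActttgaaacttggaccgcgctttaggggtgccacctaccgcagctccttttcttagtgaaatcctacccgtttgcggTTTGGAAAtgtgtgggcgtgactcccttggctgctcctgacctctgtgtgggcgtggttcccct
Lep: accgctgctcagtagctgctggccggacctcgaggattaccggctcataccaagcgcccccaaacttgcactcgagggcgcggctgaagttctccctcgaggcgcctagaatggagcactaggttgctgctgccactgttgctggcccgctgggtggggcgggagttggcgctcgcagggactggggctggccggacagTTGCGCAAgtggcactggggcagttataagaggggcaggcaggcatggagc

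The C/EBP letters occurred in all 3 of these sequences, beginning 81 bases before the start of Adipoq, 212 and 127 bases before that of Nrg4 and 51 bases before that of Lep. They occurred in 36.9% of 21757 promoters of the same length. Adipoq held the CCAAT letters 3 times within 34 bases of its start, and 36.5% of all promoters held them at least once. The HIF core, present in 17% of promoters, was matched in Nrg4 at 222 bases and was not among the letters of the Adipoq or Lep window. The TATA box, the CRE core and the ERR site matched none of the 3, and were found in 11.9%, 18% and 3.93% of all promoters. No printed match overlapped another. A match is a run of letters and says nothing of binding.

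Lep encodes leptin, the hormone of fat stores that restrains appetite, and lies on chromosome 6 from 29060216 to 29073877 on the plus strand. Its level was 14.4, 0.848 and 0.247 CPM in the WT mice and 123, 15.2 and 13.1 CPM in the sST2-KO mice. WT replicate 1, with 154 counts, lay between the sST2-KO libraries, whereas WT replicates 2 and 3 had 9 and 2 counts. The log2 fold change was 3.27 (95% interval 0.082 to 6.46) and did not pass, with an adjusted p of 0.130 by edgeR's quasi-likelihood test. Once WT replicate 1 was left out it was 6.43 and passed (adjusted p = 0.0432), and without sST2-KO replicate 1, which alone had 1772 counts, it was 1.43 (adjusted p = 0.452). WT replicate 1 also had the highest sum of skeletal muscle genes among WT libraries. Among sST2-KO libraries the highest muscle sum was in replicate 3 and the highest Lep in replicate 1. The summed level of 10 genes enriched in white adipocytes was also highest in WT replicate 1 among WT libraries, at 4000 CPM. Among sST2-KO libraries that sum was lowest in replicate 1, at 460 CPM. The part of muscle or of white fat in the Lep counts was not tested.

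Retn encodes resistin, a small cysteine-rich hormone of mouse adipocytes, on chromosome 8 from 3705324 to 3710689. Its level was 96.5, 27.2 and 87.5 CPM in the WT mice and 37.6, 39.2 and 125 CPM in the sST2-KO mice. High and low libraries occurred in both groups, with a spread of 3.54-fold within WT and 3.32-fold within sST2-KO mice. The log2 fold change was -0.07 (95% interval -1.46 to 1.32, adjusted p = 0.947 by edgeR's quasi-likelihood test), so a change of more than 2-fold in either direction was within the interval. Its sign was not fixed, since it was 0.21 with total counts, -0.88 without sST2-KO replicate 3 and 0.22 without WT replicate 1.

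Cfd encodes adipsin, complement factor D, the serine protease that starts the alternative complement pathway. It lies on chromosome 10 from 79726668 to 79728496 on the plus strand and overlaps no annotated gene on the other strand. Its level was 3476, 2834 and 3936 CPM in the WT mice and 1814, 2861 and 1881 CPM in the sST2-KO mice. Only sST2-KO replicate 2 reached the WT range, lying just above WT replicate 2. This was a log2 fold change of -0.64 (95% interval -1.39 to 0.11, adjusted p = 0.193 by edgeR's quasi-likelihood test) and it lay between -0.91 and -0.52 with each library left out.

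Because a ratio of genes within a library does not depend on the scaling of that library, the other adipocyte hormones were also set against Adipoq. Lep was 0.559%, 0.0281% and 0.00663% of Adipoq per kb in the WT mice and 9.70%, 0.877% and 1.42% in the sST2-KO mice. Every sST2-KO ratio was higher than every WT ratio, and the mean log2 ratio differed by 5.19 (exact two-sided permutation test, p = 0.1, the smallest possible). The Cfd to Adipoq ratio was 470%, 325% and 367% in WT and 495%, 573% and 707% in sST2-KO mice. These did not overlap either, with a difference of 0.61 in mean log2 ratio (p = 0.1 from the same exact test). For Retn, ratios of 2.57% to 10.7% in WT and 6.45% to 38.5% in sST2-KO mice overlapped (difference 1.17 in mean log2 ratio, p = 0.5 from the same exact test). The 3 p-values are not adjusted. The rise or fall of a ratio does not show which of its genes moved, and Adipoq itself passed as lower. The share of all genes whose ratio to Adipoq did not overlap between the groups was not computed. Set against the mean of the 12 mature adipocyte markers, which differed by -1.16, 67.5% of all genes tested were higher in sST2-KO mice without overlap. The separation of Lep and Cfd is therefore not read as particular to these genes.

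**Figure D3:**
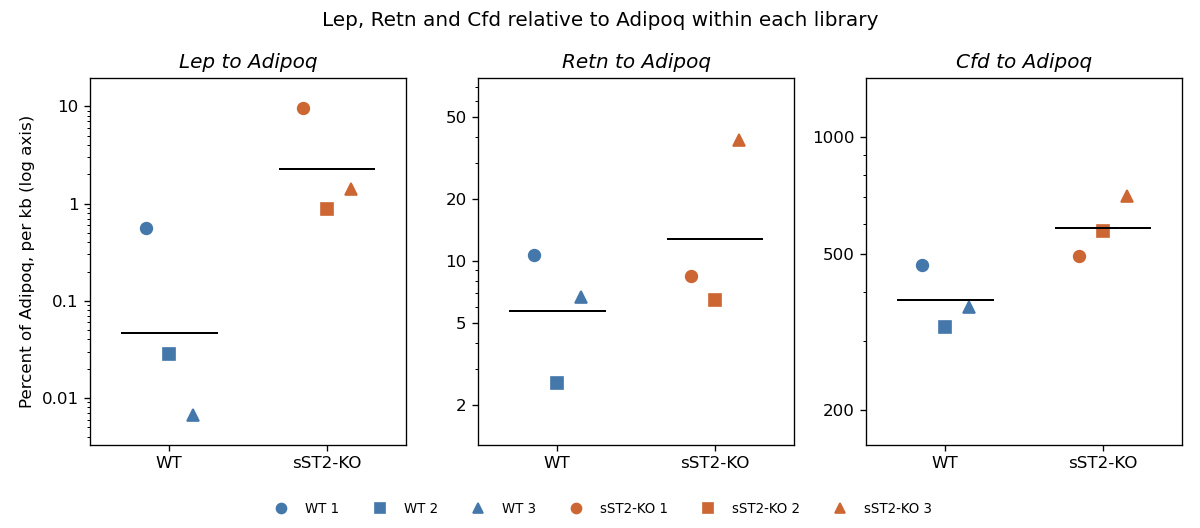
Lep, Retn and Cfd as a percent of Adipoq within each library, per kilobase of transcript, on log axes that differ between panels, with a line at the geometric mean of each group (n = 3). The Lep and Cfd ratios of the 3 sST2-KO libraries lie above those of all WT libraries, and the Retn ratios overlap.

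Fgf21 encodes a hormone that brown fat and liver release and that raises energy expenditure. It lies on chromosome 7 from 45263301 to 45266963 on the minus strand. Its level was 3.08, 6.41 and 3.58 CPM in the WT mice and 3.48, 4.03 and 3.36 CPM in the sST2-KO mice, which is 29 to 68 counts. Apart from WT replicate 2, the libraries were within a narrow range. Between the genotypes the log2 fold change was -0.27 (95% interval -1.11 to 0.57, adjusted p = 0.631 by edgeR's quasi-likelihood test), and it was 0.12 without WT replicate 2. WT replicate 2 is also the library with 7119 CPM of liver genes, and the part of liver RNA in its Fgf21 counts was not tested.

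Bmp8b encodes a bone morphogenetic protein that brown adipocytes produce on activation and that shapes their innervation. It lies on chromosome 4 from 122998923 to 123025892. It had 5, 3 and 4 counts in the WT mice and 1, 1 and 2 in the sST2-KO mice, too few to be kept by the filter. The groups did not overlap, yet the summed counts of 12 and 4 gave a ratio of 0.298 with an exact 95% counting interval of 0.0701 to 0.984, which leaves out the spread between mice. Fitted without the filter, its log2 fold change was -1.63 (adjusted p = 0.255 by edgeR's quasi-likelihood test). Ppie and Gm17244 overlap it on the opposite strand, and their exons together share 3678 of its 5868 exon bases. Its near copy Bmp8a was at 0 in some WT libraries and reached 0.209 CPM at most. The source of the few Bmp8b reads is therefore uncertain.

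Vegfa encodes the main growth factor of blood vessels and lies on chromosome 17 from 46327919 to 46343309 on the minus strand. Its level was 536, 449 and 680 CPM in the WT mice and 497, 471 and 304 CPM in the sST2-KO mice. Both other sST2-KO libraries lay within the WT range, and only replicate 3 lay below it. Vegfa had a log2 fold change of -0.39 (95% interval -1.05 to 0.27, adjusted p = 0.361 by edgeR's quasi-likelihood test) and it was -0.20 without sST2-KO replicate 3.

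Gdf15 encodes a stress hormone of the TGF-β superfamily that lowers food intake. It lies on chromosome 8 from 71082038 to 71091537 on the minus strand. Its level was 2.61, 17.2 and 1.48 CPM in the WT mice and 16.2, 46.4 and 15.5 CPM in the sST2-KO mice. WT replicate 2 stood apart from the other WT libraries and lay just above the lower sST2-KO libraries. For Gdf15 the log2 fold change was 1.85 (95% interval -0.21 to 3.91) and did not pass, with an adjusted p of 0.175 by edgeR's quasi-likelihood test. Once WT replicate 2, the library with the liver genes, was left out it was 3.64 and passed (adjusted p = 0.0402). Without sST2-KO replicate 2, the highest, it was 1.12 (adjusted p = 0.439). The part of liver RNA in the Gdf15 counts of WT replicate 2 was not tested.

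Nampt encodes the rate-limiting enzyme of NAD salvage from nicotinamide and lies on chromosome 12 from 32869544 to 32903368 on the plus strand. Its level was 517, 481 and 623 CPM in the WT mice and 476, 442 and 391 CPM in the sST2-KO mice. The groups did not overlap, but WT replicate 2 and sST2-KO replicate 1 were nearly equal. The log2 fold change was -0.31 (95% interval -0.82 to 0.21, adjusted p = 0.355 by edgeR's quasi-likelihood test), and with total counts it was -0.039.

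The receptors and binding partners of these factors were read from the same fit. Of 19 tested, 1 passed as higher and 3 as lower. For this list and those below, 10.5% of all genes tested passed as higher and 9.1% as lower. The receptors of neuregulin 4, Erbb4 and Erbb3, both fell, from 4.74 ± 1.02 to 1.74 ± 0.665 CPM (SD, n = 3; log2 fold change -1.43, adjusted p = 0.0437 by edgeR's quasi-likelihood test) and from 3.15 ± 0.445 to 1.41 ± 0.239 CPM (SD, n = 3; log2 fold change -1.15, adjusted p = 0.0469 from the same test). Kdr, the main signaling receptor of VEGF-A on endothelium, fell from 221 ± 70.7 to 94.1 ± 29.4 CPM (SD, n = 3; log2 fold change -1.23, adjusted p = 0.0390 from the same test). Flt1, the other VEGF-A receptor, had a log2 fold change of -0.15 (adjusted p = 0.703 from the same test). Cap1, a binding partner of resistin, rose from 164 ± 14.5 to 280 ± 57.0 CPM (SD, n = 3; log2 fold change 0.77, adjusted p = 0.0496 from the same test). These 4 calls depended on single libraries. Those of Erbb3 and Erbb4 were lost in 6 of 6 fits with a library left out, and those of Kdr and Cap1 in 5 of 6. The adiponectin receptors had log2 fold changes of -0.88 (Adipor2, adjusted p = 0.0693 from the same test, groups without overlap) and -0.19 (Adipor1, adjusted p = 0.520). The leptin receptor Lepr was at 0.740 to 5.28 CPM, where the log2 fold change was 0.17 (adjusted p = 0.868 by the same test). Klb and Fgfr1, which together receive FGF21, had log2 fold changes of -0.67 and 0.10 (adjusted p = 0.369 and 0.731 from the same test). The GDF15 receptor Gfral, known from the hindbrain, was at 0 in 5 of the 6 libraries.

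Among 16 tested relatives of the 10 genes, 1 passed as higher and 3 as lower. Fgf23, an endocrine FGF of the same subfamily as Fgf21 that is best known from bone, rose from 0.829 ± 0.499 to 23.5 ± 14.6 CPM (SD, n = 3; log2 fold change 4.78, adjusted p = 0.0135 by edgeR's quasi-likelihood test). It stood at 1.40, 0.471 and 0.616 CPM in WT and at 8.08, 25.2 and 37.2 CPM in sST2-KO mice, and its call was lost only without WT replicate 3 (adjusted p = 0.0614). Vegfb fell, by a log2 fold change of -1.53 (adjusted p = 0.0343 from the same test), while Pgf, Vegfc and Vegfd, also of the VEGF family, had log2 fold changes of 1.06, 1.10 and 0.53 (adjusted p = 0.148, 0.107 and 0.488). Fam132a, the adiponectin paralog also called C1qtnf12, fell by 1.92 on the log2 scale (adjusted p = 0.0177), and Naprt, the nicotinic acid counterpart of Nampt, fell by 1.37 (adjusted p = 0.0408). Of the resistin-like genes, Retnla differed by -1.53 on the log2 scale (adjusted p = 0.0523) and Retnlg by 2.22 (adjusted p = 0.0833), both from the same test. The calls of Vegfb, Fam132a and Naprt were lost in 4, 1 and 5 of 6 fits with a library left out.

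In a wider list of 29 other factors secreted by fat, 27 were tested, and 5 passed as higher and 5 as lower. The 4 with the smallest adjusted p differed in direction. Angptl8, an inhibitor of lipoprotein lipase, fell from 15.9 ± 3.67 to 2.28 ± 0.984 CPM (SD, n = 3; log2 fold change -2.79, adjusted p = 0.0133 by edgeR's quasi-likelihood test). Rbp4, the carrier of retinol, fell as well (log2 fold change -3.45, adjusted p = 0.0149 from the same test). It was at 39.2, 184 and 65.0 CPM in WT and at 9.55, 7.36 and 9.28 CPM in sST2-KO mice, the highest value being in the WT library with liver genes. Pdgfa, a platelet-derived growth factor, rose from 8.54 ± 1.98 to 22.7 ± 1.81 CPM (SD, n = 3; log2 fold change 1.41, adjusted p = 0.0150 from the same test). Il6, a cytokine of inflammation and of exercised muscle, rose too (log2 fold change 4.66, adjusted p = 0.0154 from the same test). Its counts were 5, 14 and 1 in WT and 78, 163 and 266 in sST2-KO replicates 1 to 3, so that the groups did not overlap and the size of the change is imprecise. Each of these 4 calls was lost in 1 of 6 fits with a library left out, that without WT replicate 3.

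**Figure D4:**
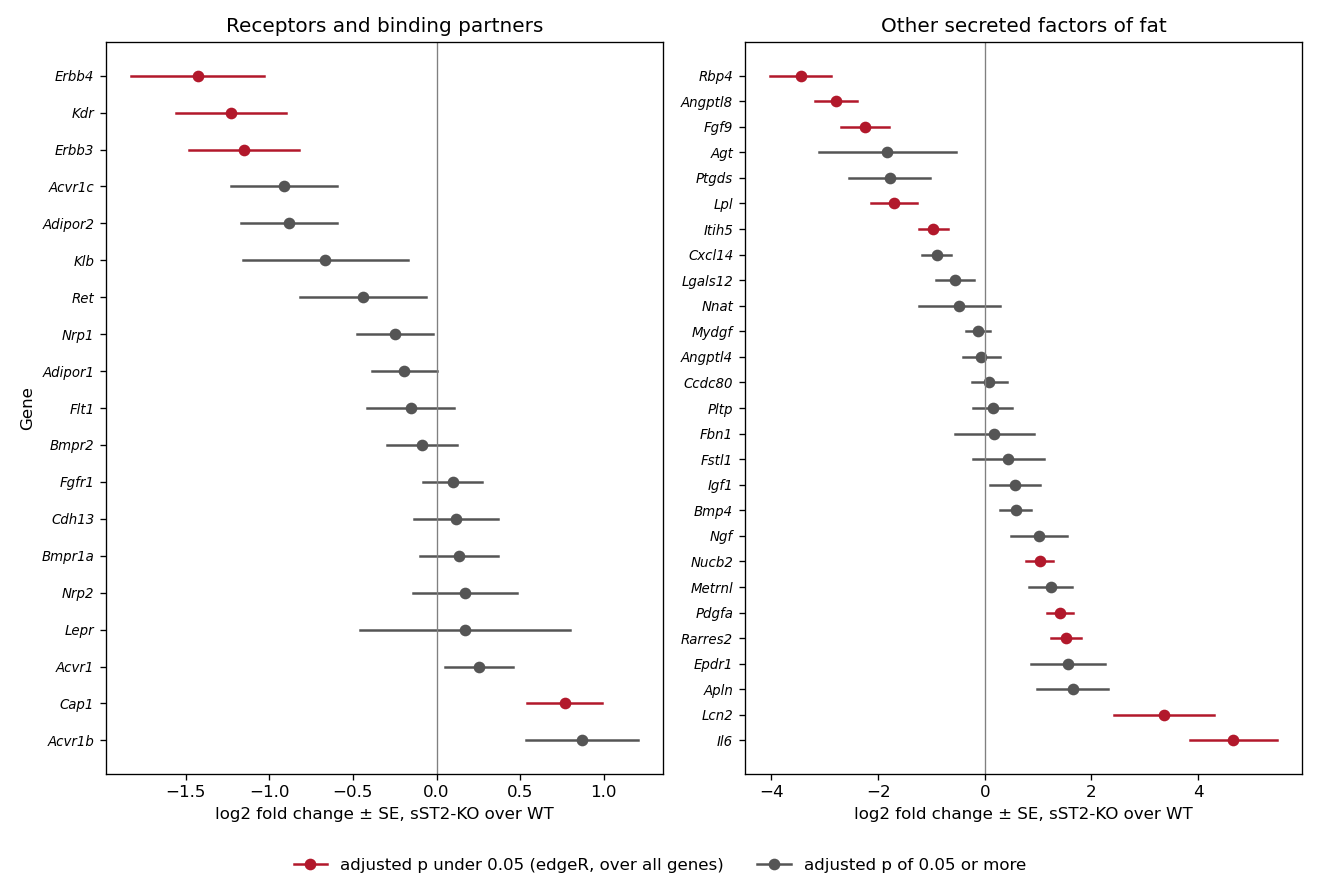
log2 fold change ± standard error of sST2-KO over WT for the 19 tested receptors and binding partners and for the 27 other tested secreted factors of fat, with the genes in order of the fold change and an adjusted p under 0.05 from edgeR in red. Among the receptors the red points are Erbb4, Kdr and Erbb3 on the lower side and Cap1 on the higher side, and the other factors run from Rbp4 (-3.45) to Il6 (4.66).

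Around Cfd, 3 of 6 tested genes of the alternative complement pathway passed, all as higher. Cfb, the protein that adipsin cleaves, rose from 154 ± 61.4 to 493 ± 252 CPM (SD, n = 3; log2 fold change 1.68, adjusted p = 0.0400 by edgeR's quasi-likelihood test), Cfp, properdin, by 1.79 on the log2 scale (adjusted p = 0.0482), and C3ar1, the receptor of the C3a peptide, by 2.23 (adjusted p = 0.0410). C3 itself had a log2 fold change of 0.02 (adjusted p = 0.974 from the same test). Each of the 3 was highest in sST2-KO replicate 3 and lost its call in 4 of 6 fits with a library left out. Of 10 macrophage markers, 3 passed as higher (Itgam, Fcgr1 and Lyz2), 9 had a log2 fold change above 0 and Cd163 one of -1.26 (adjusted p = 0.127 by edgeR's quasi-likelihood test). None passed without WT replicate 2 or WT replicate 3, and 1 without WT replicate 1. The summed level of the 10 was 539 to 809 CPM in WT and 1142 to 5077 CPM in sST2-KO mice, with none at 0 in a WT library and the highest sum in sST2-KO replicate 3. Of 7 neutrophil markers 3 passed as higher (Csf3r, Mmp9 and Cxcr2), with sums of 31.7 to 135 and 147 to 721 CPM and Ly6g at 0 in a WT library, and 0 to 5 of them passed with a library left out (0 without WT replicate 3). The part of these cells in the complement values was not tested.

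Around Nampt, 10 genes of NAD metabolism were tested, and 1 passed as higher and 2 as lower. Sirt3, the mitochondrial NAD-dependent deacylase, fell from 72.7 ± 23.9 to 15.6 ± 5.09 CPM (SD, n = 3; log2 fold change -2.22, adjusted p = 0.0135 by edgeR's quasi-likelihood test). Nnmt, which methylates nicotinamide and so draws it from salvage, fell from 204 ± 16.4 to 70.3 ± 17.0 CPM (SD, n = 3; log2 fold change -1.54, adjusted p = 0.0136 from the same test). Cd38, an NAD-degrading enzyme that immune cells also carry, rose (log2 fold change 2.25, adjusted p = 0.0361 from the same test) and was at 85.5, 87.0 and 304 CPM in sST2-KO mice. Its call was lost without WT replicate 2, WT replicate 3 or sST2-KO replicate 3, while the calls of Sirt3 and Nnmt were lost only without WT replicate 3.

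Of 6 genes that assemble or export adiponectin, 1 passed, as lower. The other 5 had a log2 fold change above 0, and the median of the 6 was 0.14. Gstk1 (DsbA-L), which promotes its multimers, fell from 63.8 ± 12.1 to 29.0 ± 9.93 CPM (SD, n = 3; log2 fold change -1.14, adjusted p = 0.0334 by edgeR's quasi-likelihood test), beside -1.24 for Adipoq. Its call was lost in 4 of 6 fits with a library left out. For Ero1l, which frees adiponectin from its retention in the endoplasmic reticulum, the log2 fold change was 0.95 (adjusted p = 0.0906 by the same test). Among 15 regulators of transcription known to act on these genes, 2 passed as lower, Esrra (log2 fold change -1.78, adjusted p = 0.0100 from the same test) and the coactivator Ppargc1a (-2.20, adjusted p = 0.0167). Another 2 passed as higher, Hif1a (1.81, adjusted p = 0.0292) and Cebpd (0.92, adjusted p = 0.0474), also from the same test. Pparg, the master regulator of adipocytes, had a log2 fold change of -0.66 (adjusted p = 0.210 from the same test). The calls of Hif1a and Cebpd were each lost in 5 of 6 fits with a library left out, that of Ppargc1a without WT replicate 2 or 3, and that of Esrra in none.

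The level of adipocyte transcripts as a whole also differed between the groups. Of 12 markers of mature adipocytes, none of them among the 10 genes, all 12 had a log2 fold change below 0 and 3 passed as lower (Slc2a4, Gpd1 and Aqp7), with 0 to 5 passing when a library was left out (0 without WT replicate 3). Their summed level was 22472 to 28349 CPM in WT and 7885 to 15485 CPM in sST2-KO mice, and none was at 0 in a library. The mean log2 CPM of the 12 was lower by 1.16 in sST2-KO mice. Set against that mean in each library, the difference of Adipoq became -0.12 on the log2 scale, with overlap between the groups (exact two-sided permutation test, p = 0.5), and that of Nrg4 became -0.58, also with overlap (p = 0.2 from the same exact test). Cfd and Retn then differed by 0.49 and 1.05, again with overlap (p = 0.3 and 0.6 from the same exact test). Vegfa, Nampt, Fgf21, Gdf15 and Lep did not overlap on this scale and were higher in the sST2-KO libraries, by 0.76, 0.85, 0.97, 3.55 and 5.12, each with the smallest possible exact p of 0.1, unadjusted for the 9 genes. These were 5 of the 9 genes, beside 67.5% of all genes tested that did not overlap and were higher on this scale, and 2.35% that were lower. On this scale Vegfa, Nampt, Fgf21, Retn and Cfd had a sign opposite to that in CPM.

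**Figure D5:**
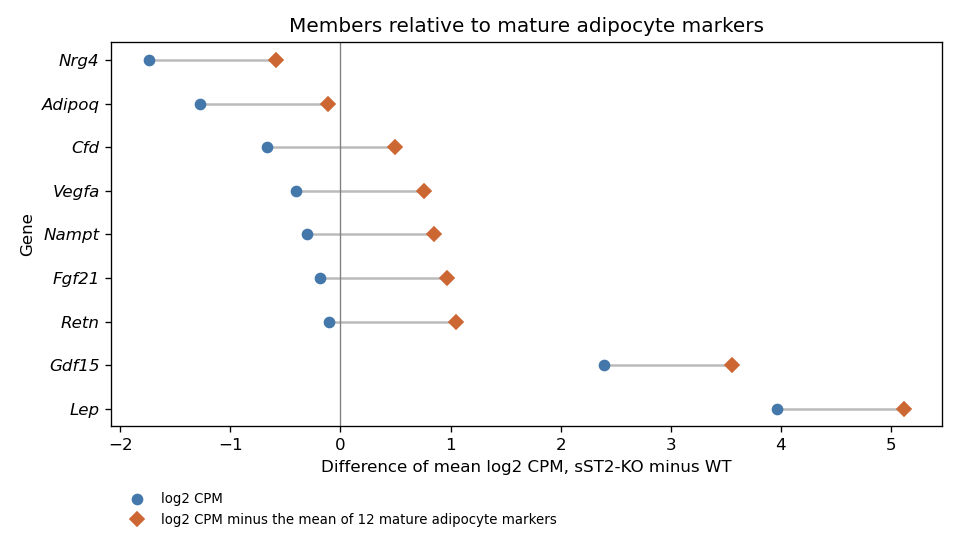
Difference of the mean log2 CPM between sST2-KO and WT mice (3 each) for the 9 tested genes, as measured (circles) and after subtracting the mean log2 CPM of 12 mature adipocyte markers in each library (diamonds). Each gene moves to the right by the same 1.16, which takes Adipoq to -0.12 and Nrg4 to -0.58.

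Of 6 tested genes enriched in white adipocytes, 2 passed, Nnmt and Npr3, both as lower, and neither did without WT replicate 3. The summed level of the list was 1839 to 4000 CPM in WT and 460 to 1734 CPM in sST2-KO mice. Hoxc9, Hoxc10 and Tcf21 were at 0 in at least 1 WT library, and 2 of them were at 0 in every WT library. Of 8 endothelial markers, Emcn passed as higher and Kdr as lower, and these calls were lost in 4 and 5 of 6 fits with a library left out. Skeletal muscle markers did not overlap between the groups and were higher in sST2-KO mice in 10 of 10 genes, of which Pvalb passed the test, and Ckm, Myh2, Myh4 and Pvalb were at 0 in a WT library. Without WT replicate 1, the WT library with the highest sum of muscle genes, 10 of 10 passed as higher. In the fits without WT replicate 2, WT replicate 3, sST2-KO replicate 2 or sST2-KO replicate 3, 0 passed. Of 4 tested Schwann cell genes, S100b and Sox10 passed as lower (log2 fold change -3.13 and -1.70, adjusted p = 0.0174 and 0.0365 by edgeR's quasi-likelihood test), while Th and Dbh, the defining genes of noradrenergic nerves, whose cell bodies lie outside BAT, were at 0 in some WT libraries. The call of S100b was lost without WT replicate 3 and that of Sox10 in 4 of the 6 fits. The part of each of these tissues in the values of the 10 genes was not tested.

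For each gene, the tested genes with the most similar pattern were taken as the 3 with the smallest root mean square difference of centered log2 CPM over the 6 libraries, among 14541 genes. Nearest to Adipoq were Hspa9, at 0.0599, Gstk1 at 0.0791 and Ppp2r1b at 0.0799. Nearest to Nrg4 were Oxnad1, at 0.0750, Ptgr2 at 0.0962 and Ino80dos at 0.115. Vegfa lay closest to Trmo, at 0.0267, Ttc23 and Tmem177, Nampt to Map2k5, at 0.0417, Atrn and Acp1, and Cfd to Zfp655, at 0.0978, Mto1 and Pigq. Fgf21 lay closest to Gnb1l, at 0.0612, Thop1 and Mthfd1, and Retn to Slc7a10, at 0.179, Adam33 and Dmkn. The uneven patterns of Lep and Gdf15 had no close match. Tnnt2, Bzrap1 and Dusp27 came nearest to Lep, at 0.803 to 1.09, and Rpph1, Apol7e and Rn7sk to Gdf15, at 0.585 to 0.629.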

How the data were processed

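RNA from BAT of 3 WT and 3 sST2-KO mice was sequenced as poly-A-selected paired-end libraries. The authors aligned reads to mm39 with HISAT2 (2.2.1, after FastQC 0.12.1, versions from the submitters' processing notes) and deposited unnormalized counts per gene symbol from htseq-count, whose version, annotation and strand setting are not given in the sources used here. Libraries were assigned by their labels as separate mice, and the number of unused per-sample columns was 0.

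The analysis used edgeR 4.0.16 in R 4.3.3 (filterByExpr, TMM, glmQLFit and glmQLFTest without covariates). TMM factors were 0.996, 0.924 and 0.825 in WT and 1.12, 1.03 and 1.14 in sST2-KO replicates 1 to 3. Total counts were 10784814, 11597730 and 9841583 in WT and 12874809, 8159442 and 8917874 in sST2-KO replicates 1 to 3, so that genes at a few counts are imprecise. The common biological coefficient of variation was 0.325. Ratios used a prior count of 2 on the log2 scale and none in the percentages. No library was a copy of another, as chi-square per degree of freedom was 36.6 to 104 within groups. Alternatives were DESeq2 1.42.0 (the tool the authors used), scaling by RLE factors or by total counts, testing without the filter or with a minimum of 10 counts in all libraries, a 2-fold minimum, the replicate number as a block and each library left out. The steps were tested on simulated data.

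Genes named were all 10 members, the listed receptors, partners and near copies, up to 4 genes per list by smallest adjusted p, and the 3 nearest genes. Pgf, Vegfc, Vegfd, C3, Ero1l and Pparg, whose values are given for comparison, and the liver list, were chosen after values were seen. Members and lists were chosen with earlier results of these data known, and 1 gene of the list of other secreted factors is not reported here and was left out of its counts. Positions, transcript lengths (for 91.3% of genes tested) and promoters are from the GRCm39 genome and the GENCODE annotation, matched by symbol. In 27 rows a spreadsheet had turned the symbol into a date. Python 3.11.15 and matplotlib 3.10.9 drew the figures.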

Additional observations from a re-analysis of the deposited data

How the results depend on the processing

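Adipoq and Nrg4 passed as lower (2 genes) with DESeq2, with RLE factors or total counts, without the filter, with a minimum of 10 counts in all libraries and with a 2-fold minimum. With each library left out, 0 to 2 of the 10 genes passed as lower and 0 to 1 as higher, and over all genes 58 to 2520 passed, 36 to 1502 as higher and 22 to 1189 as lower. The fewest passed without WT replicate 3 (58), with 3797 below 0.05 before adjustment, and 876 passed without WT replicate 2 and 1416 without sST2-KO replicate 3. Total counts raised the share of calls that were higher from 53.5% to 71%. With the replicate block, 0 genes passed in either direction, against 2847, with 4623 below 0.05 before adjustment, and the adjusted p of Adipoq was 0.0934 and that of Nrg4 0.0644. The pairing of mice by number had no support in the deviations from the group means, which correlated at -0.06, 0.21 and -0.31 for numbers 1, 2 and 3. The number of receptors that passed as lower was 3, against 1 with total counts and 1 without the filter. Of 116 alternative values for single genes, 94 were classed as unchanged. Another 7 lost a call, 2 gained one, 6 reversed in sign and 7 moved. For a refit, unchanged means the same direction and call. Values set against the adipocyte markers have no call, and were unchanged within 1 group SD of the edgeR value and otherwise moved. Lep, with no p from DESeq2, counts as unchanged there. The log2 fold change of Retn turned to 0.21 with total counts. With single libraries left out it lay between -0.88 and 0.22, and that of Fgf21 between -0.47 and 0.12. The cause of these changes was not tested. Few counts limit the precision of Bmp8b and Fgf21, at 1 to 5 and 29 to 68 counts per library. Lep had few counts only in WT replicates 2 and 3 (9 and 2), and its level also differed by 58.3-fold among WT libraries.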
